A study of Nothobranchius furzeri with 228 samples.

Results

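The genes described here are 150 genes whose transcript levels in fin clips differed less between killifish at 20 weeks than between the same killifish at 10 weeks of age. They were chosen by their spread. Counts were scaled to a common library total (CPM) and put on the log2(CPM + 1) scale, and genes with a mean CPM of at least 5 and a mean change between the ages under 0.5 in each of 3 ranges of fish numbers (fish 1 to 50, 51 to 84 and 85 upward) were retained. After the mean of its range was subtracted from each value, the standard deviation (SD) over fish was taken at each age, and the 150 genes with the lowest ratio of the SD at 20 weeks to the SD at 10 weeks are the members. They come from 7728 genes that met both limits, of 26739 genes in the count table. The samples were 114 fin clips taken at 20 weeks and 114 taken at 10 weeks from 114 turquoise killifish, *Nothobranchius furzeri*. All were males of MZM-0410, a strain derived from wild fish, were labelled as aging normally at both ages, and were then followed until death. The age at death is given for all but 1 of them. Each fish gave 1 sample per age, so that an SD over fish holds differences between animals, between clips and between libraries together.

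A fin clip is a piece of skin-covered fin that holds epidermis, fibroblasts, bone-forming and pigment cells, nerves and vessels, and it can be taken repeatedly from 1 animal. A transcript can keep its mean level with age while the differences between animals narrow or widen. Such a difference in spread is not visible in a comparison of means. The names of the members come from tables of the study that pair only part of the identifiers with a symbol or a human orthologue: 53 of the 150 members (35.3%) and 2367 of the 7728 genes within the limits (30.6%) had one. Roles given below are those known for the human or mouse orthologues.

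The median SD of the members over 114 fish was 0.213 log2 units at 20 weeks and 0.298 at 10 weeks. The ratio of the SDs lay between 0.46 and 0.772 with a median of 0.734, while over the 7728 genes within the limits its median was 1.05 and 36.5% of them had a ratio under 1. These values chose the members and are given as a description. The last members inside the limit were fxr2, of a family of RNA-binding proteins, and PMS1, a DNA mismatch repair protein, both with a ratio of 0.772, and the first genes outside it were Nfu_g_1_023440 and Nfu_g_1_013856, also at 0.772. The limit therefore fell inside a continuous range of values. With the median absolute deviation, which gives single extreme fish little weight, the median ratio of the members was 0.688 and 148 of 150 stayed under 1. When the fish that deviated most at 10 weeks was left out gene by gene, all 150 members kept a ratio under 1, with a highest value of 0.904.

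**Figure D1:**
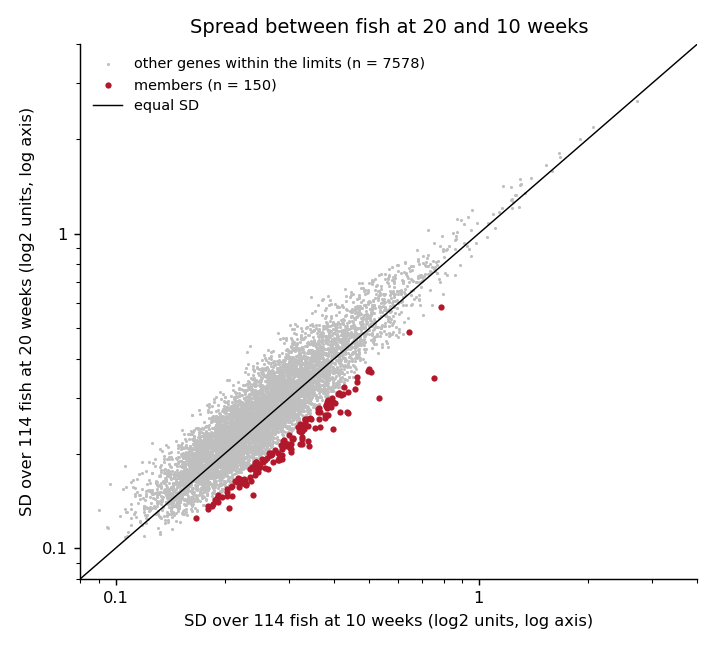
SD of log2(CPM + 1) over 114 fish at 20 weeks (vertical axis) against the SD at 10 weeks (horizontal axis), both on log axes, for the 150 members (red) and the other genes within the limits (grey). The members lie under the line of equal SD, at a median of 0.213 at 20 weeks and 0.298 at 10 weeks.

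Within the single ranges the lower spread was not uniform. Like the settings above, the ratios within ranges come from the same values that chose the members. Ratios under 1 are thus partly built in and are given as a description. In fish 1 to 50 (48 fish) 147 of 150 members had a ratio under 1, against 45.4% of the genes within the limits. In fish 51 to 84 (34 fish) there were 110 such members, against 30.7% of the genes, and 40 members thus had an SD at 20 weeks that was equal or higher. In fish 85 upward (32 fish) 127 members had a ratio under 1, against 51.1% of the genes. The median ratio of the members was 0.745, 0.799 and 0.618 in these 3 ranges. A ratio under 1 in all 3 ranges was found for 85 members and for 425 of the 7728 genes. Random counting of reads accounted for a median of 6.43% of a member's variance at 20 weeks and 3.31% at 10 weeks. The upper quartile of this share was 12.3% at 20 weeks and 6.19% at 10 weeks. Its highest value was 47.1% at 20 weeks and 23.99% at 10 weeks. Counting error was thus small for most members but not for all.

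Among the members with a role in DNA synthesis and repair, RRM2, the small subunit of ribonucleotide reductase, which makes the building blocks of DNA, had the lowest ratio of all named members (0.604). RRM2 (Nfu_g_1_019000) ranged from 19.8 to 52.3 CPM with a median of 29.5 at 20 weeks, against 17.2 to 62.2 CPM with a median of 32.7 at 10 weeks. The ranges overlapped, with 11 fish at 10 weeks above every fish at 20 weeks and 2 below every fish at 20 weeks. RRM2 was also the only member on the cell cycle list. Of the 39 cell cycle genes that could be named, 5 met the limits on level and change, and 3 of these had a ratio under 1, with a median of 0.967. PMS1 (Nfu_g_1_002702) ranged from 10.4 to 28.8 CPM with a median of 15.3 at 20 weeks, against 9.18 to 32.8 CPM with a median of 15.3 at 10 weeks, and the range at 10 weeks thus contained that at 20 weeks.

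Among the 25 named members with the lowest ratios were also genes for proteins of chromatin and transcription. No list of such genes was tested. DIDO1 and dido1 carry the name of a protein with a PHD finger that binds methylated histones. DIDO1 (Nfu_g_1_001644) ranged from 22.4 to 71.2 CPM with a median of 38.6 at 20 weeks, against 19.3 to 79.1 CPM with a median of 35.2 at 10 weeks (ratio 0.624). dido1 (Nfu_g_1_020750) ranged from 78.9 to 156 CPM with a median of 104.3 at 20 weeks, against 60.7 to 203 CPM with a median of 99.3 at 10 weeks (ratio 0.657). For both, the fish at 10 weeks lay above and below the range of the fish at 20 weeks, in 9 and 10 fish for dido1. The levels of both genes moved together over the 114 fish, with a Pearson correlation of 0.797 at 20 weeks and 0.893 at 10 weeks. Reads of similar copies of a gene may be shared between them, and the extent of this was not tested.

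Further genes of this kind among the 25 were atf7ip, a cofactor of histone methylation, with a ratio of 0.664, the co-repressor CTBP1 (0.697), RBL2, a pocket protein of the retinoblastoma family (0.701), the zinc finger proteins ZBTB11 (0.708) and ZNF384 (0.728), MEN1, which encodes menin (0.71), MED14, a subunit of the Mediator complex (0.711), the co-repressor irf2bp2a (0.72), and NPAT, a co-activator of histone genes (0.73). MEN1 (Nfu_g_1_022458) ranged from 9.42 to 23.8 CPM with a median of 15.7 at 20 weeks, against 10.8 to 27.8 CPM with a median of 16.8 at 10 weeks, and 13 fish at 10 weeks lay above every fish at 20 weeks. MED14 (Nfu_g_1_005708) ranged from 44.3 to 86.2 CPM with a median of 58.2 at 20 weeks, against 35.7 to 85.03 CPM with a median of 59.8 at 10 weeks, and here the excess at 10 weeks was at the low end, with 4 fish below every fish at 20 weeks. MED1 (Nfu_g_1_022835), another Mediator subunit, had a ratio of 0.74 and followed MED14 over fish with a correlation of 0.668 at 20 weeks and 0.853 at 10 weeks.

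Several further members bind or process RNA. cnot3a, a subunit of the CCR4-NOT complex that removes the poly(A) tails of mRNA, ranged from 16.5 to 48.2 CPM with a median of 35.9 at 20 weeks, against 17.1 to 58.2 CPM with a median of 35.3 at 10 weeks (ratio 0.668). In cnot3a, 10 fish at 10 weeks exceeded every fish at 20 weeks and none lay below them. ilf3b, which encodes a protein that binds double-stranded RNA, ranged from 95.1 to 215 CPM with a median of 146 at 20 weeks, against 70.4 to 265 CPM with a median of 114.7 at 10 weeks (ratio 0.681). Its excess at 10 weeks was mostly downward, with 21 fish below and 3 above every fish at 20 weeks. The matrin-like matr3l1.2 (0.682), RBM33 (0.708), the cap-binding eif4e2 (0.723) and RBM14 (0.725) also belong here.

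Among the 25 named members with the lowest ratios, those that act on proteins included the F-box protein fbxl18 (0.68), DNAJB1, a heat shock protein of the HSP40 family (0.688), LONRF2, which has a RING finger and a Lon domain (0.719), SENP1, a SUMO protease (0.723), and SDF2L1, a protein of the endoplasmic reticulum (0.732). DNAJB1 (Nfu_g_1_007045) ranged from 61.05 to 170.1 CPM with a median of 90.2 at 20 weeks, against 52.9 to 187 CPM with a median of 83.4 at 10 weeks. It had 16 fish at 10 weeks below and 1 above every fish at 20 weeks. SDF2L1 (Nfu_g_1_018589) ranged from 20.1 to 58.5 CPM with a median of 35.2 at 20 weeks, against 15.7 to 74.7 CPM with a median of 30.6 at 10 weeks, and 9 fish at 10 weeks lay above every fish at 20 weeks. DNAJB1 was the only member among the 42 genes named from the immediate early and stress list, of which 7 met the limits.

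Mitochondrial proteins are encoded by several members, among them FECH (0.727), the last enzyme of heme synthesis, MRPL32 (0.73), a protein of the mitochondrial ribosome, and the respiratory chain subunits COX5B (0.735) and uqcrfs1 (0.758). COX5B (Nfu_g_1_009929) ranged from 13.1 to 31.5 CPM with a median of 20.0 at 20 weeks, against 12.4 to 36.3 CPM with a median of 18.6 at 10 weeks. uqcrfs1 (Nfu_g_1_019978) ranged from 8.59 to 14.7 CPM with a median of 11.3 at 20 weeks, against 7.69 to 17.9 CPM with a median of 10.7 at 10 weeks. COX5B and uqcrfs1 were the only members among 33 genes named from the oxidative phosphorylation list, of which 22 met the limits, with a median ratio of 1.003 and 10 under 1. No member was found among the 28 proteasome genes or the 69 ribosomal protein genes that could be named, of which 6 and 63 met the limits. As the members are 150 of the 7728 genes within the limits, their absence from lists of this size says little. Over all members the range at 10 weeks contained that at 20 weeks in 84 of 150, and the highest fish was a median of 2.51-fold above the lowest at 20 weeks and 3.23-fold at 10 weeks. These ranges come from the values that chose the members, so that wider ranges at 10 weeks are partly built in. No count over the 7728 genes is set beside them, and they are given as a description.

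**Figure D2:**
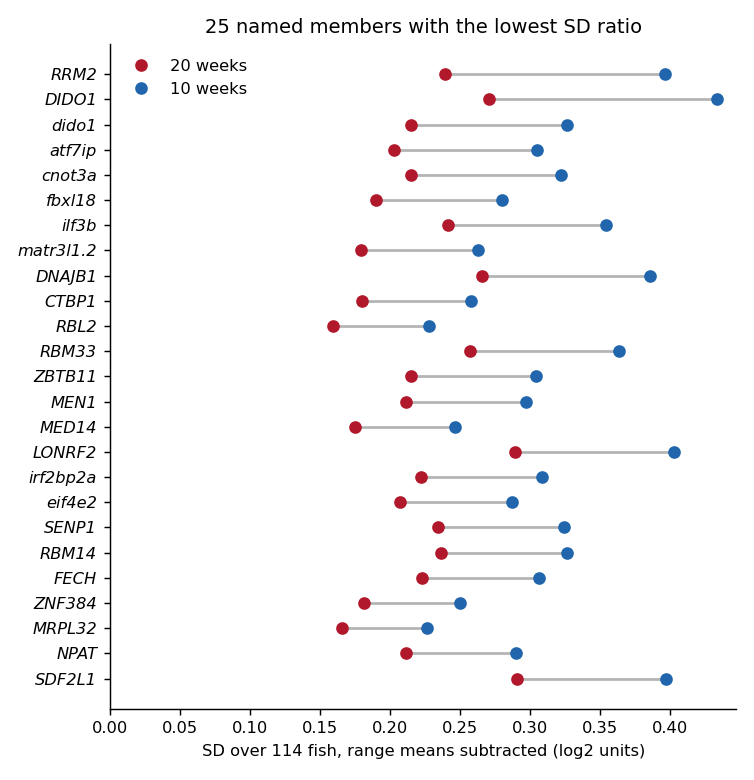
SD of log2(CPM + 1) over 114 fish, in log2 units, at 20 weeks (red) and 10 weeks (blue) for the 25 named members with the lowest ratio, ordered from the lowest ratio at the top. RRM2 stands at 0.239 at 20 weeks and 0.396 at 10 weeks, and each gene is drawn with the lower SD at 20 weeks because the rule chose it so.

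The spread at 10 weeks followed the fish number in part. The fish of each range were divided into consecutive groups of 9 to 12 fish (11 groups in all), and the part of each gene's variance found between these groups was computed after subtraction of range means. For the members the median share was 22.2% at 20 weeks and 46.5% at 10 weeks. Over the 7728 genes it was 18.2% at 20 weeks and 22.6% at 10 weeks, so that the members were near the other genes at 20 weeks and apart from them at 10 weeks. The share was larger at 10 weeks in 145 of 150 members and in 5087 of the 7728 genes. This measure is not the SD that chose the members, but it comes from the same values, and it is given with no test.

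**Figure D3:**
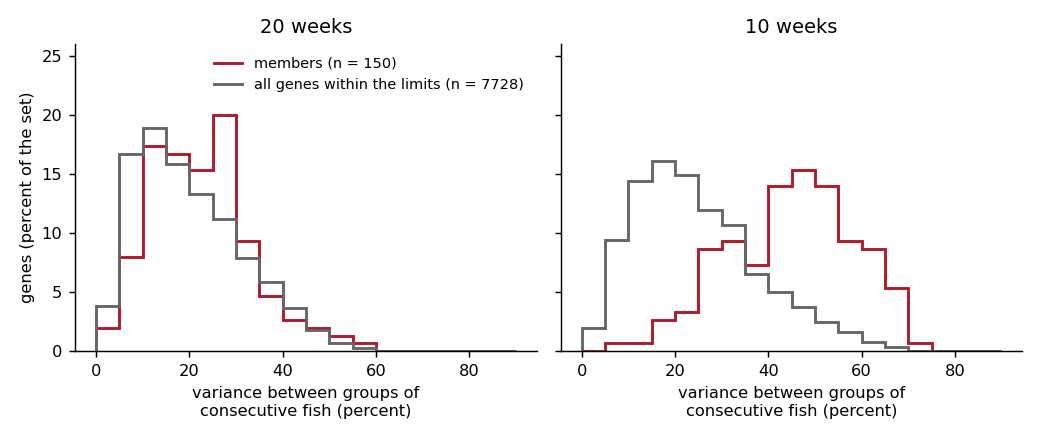
Part of each gene's variance found between groups of consecutive fish (horizontal axis, percent), as the percent of genes of each set (vertical axis), at 20 weeks (left) and 10 weeks (right). The members (red) overlap with all genes within the limits (grey) at 20 weeks, with medians of 22.2% and 18.2%, and are shifted to higher shares at 10 weeks, with medians of 46.5% and 22.6%.

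DIDO1 is an example of this pattern. At 20 weeks its mean level in the 11 groups lay between 33.1 and 48.2 CPM. At 10 weeks it was 52.6 ± 15 CPM in fish 1 to 10 (SD, n = 10), 27.1 ± 3.9 CPM in fish 23 to 32 (n = 10), 51.7 ± 8.7 CPM in fish 51 to 62 (n = 12), 29.5 ± 7.5 CPM in fish 74 to 84 (n = 11) and 58.1 ± 2.7 CPM in the 10 fish of the highest numbers. Along the fish numbers the level at 10 weeks thus went through alternating high and low stretches. The highest group was 1.46-fold above the lowest at 20 weeks and 2.14-fold at 10 weeks. Between groups lay 21.7% of the variance of DIDO1 at 20 weeks and 68.4% at 10 weeks.

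DNAJB1 likewise alternated at 10 weeks, with other groups at its highest and lowest levels. In fish 51 to 62 it averaged 75.1 ± 14 CPM at 20 weeks and 143 ± 24 CPM at 10 weeks (SD, n = 12), and in fish 85 to 95 it averaged 82.5 ± 9.0 CPM at 20 weeks and 57.2 ± 2.7 CPM at 10 weeks (SD, n = 11). ilf3b went the other way to DIDO1, with 189 ± 26 CPM in fish 11 to 21 (n = 10), 95.4 ± 15 CPM in fish 51 to 62 (n = 12) and 93.9 ± 13 CPM in the last 10 fish at 10 weeks, where DIDO1 was low in the first and high in the other two groups. At 20 weeks the group means of RRM2 lay between 26.2 and 34.1 CPM. RRM2 was highest at 10 weeks in fish 11 to 21 with 48.2 ± 15 CPM (n = 10) and in fish 74 to 84 with 44.6 ± 8.1 CPM (n = 11), and lowest in fish 51 to 62 with 24.4 ± 4.3 CPM (n = 12).

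**Figure D4:**
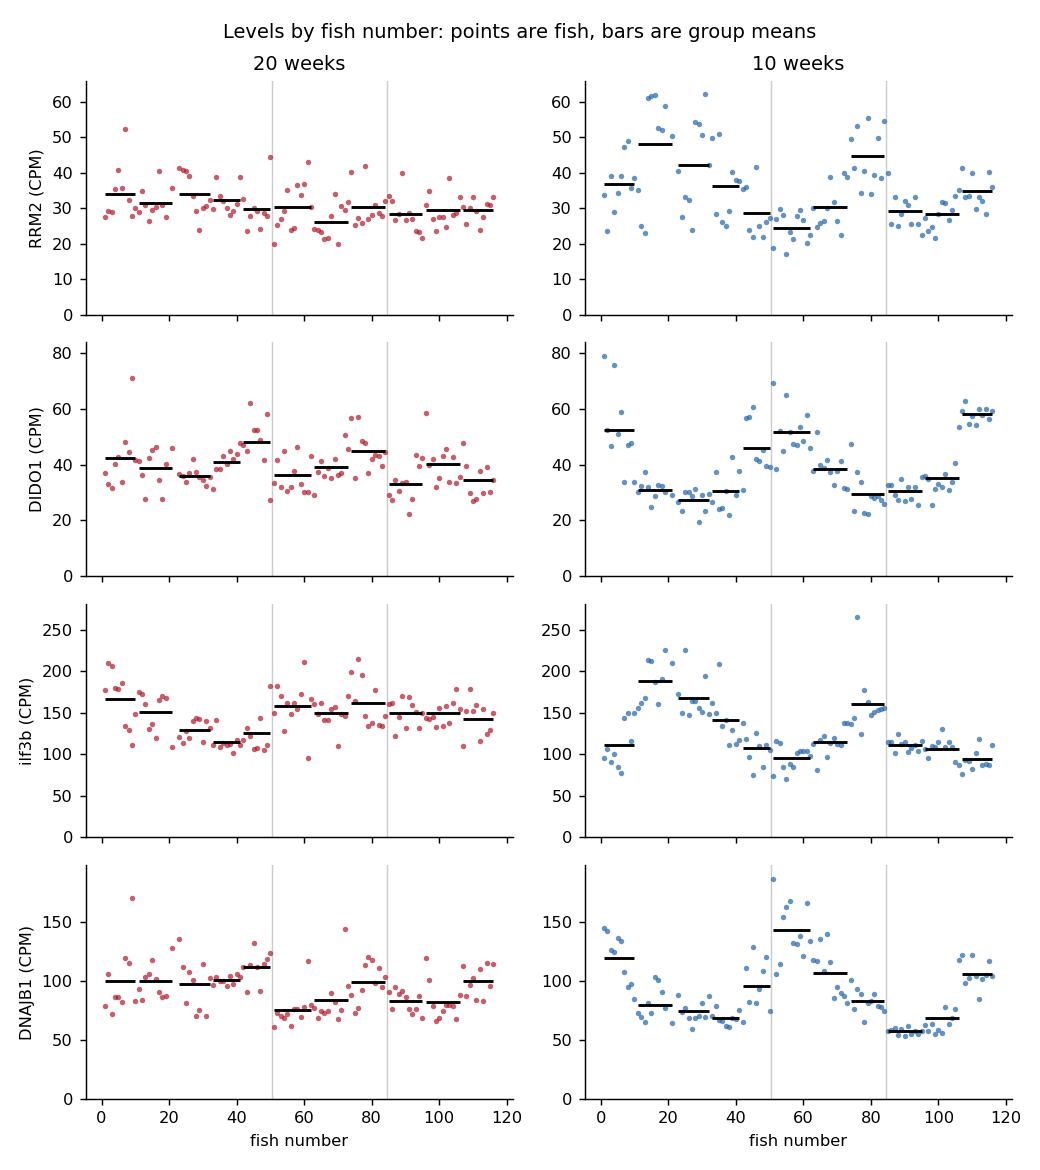
Levels (CPM) of RRM2, DIDO1, ilf3b and DNAJB1 by fish number at 20 weeks (left) and 10 weeks (right); points are fish, horizontal bars are means of groups of consecutive fish and grey lines are the limits of the 3 ranges. The bars of DIDO1 lie between 33.1 and 48.2 CPM at 20 weeks and between 27.1 and 58.1 CPM at 10 weeks, in alternating stretches.

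When the means of these groups were subtracted in place of the range means, the median ratio of the members was 0.872, against 1.08 over the 7728 genes, and 139 of 150 members stayed under 1. The median SD of the members was then 0.184 at 20 weeks and 0.217 at 10 weeks. These values, too, rest on the data that chose the members. The difference in spread was therefore smaller inside the groups, and 44 of the 150 members were still among the 150 lowest ratios. DNAJB1, PRKCE, a protein kinase C, and rbm4.2, an RNA-binding protein chosen here after its values were seen, had ratios of 1.07, 1.04 and 1.04 under this setting, and DIDO1 and dido1 had 0.982 and 0.972. RRM2 kept 0.744 and fbxl18 0.764. The labels give no date, tank, extraction or sequencing batch, and what neighbouring fish numbers share cannot be told apart here.

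The members followed few common patterns at 10 weeks. A principal component analysis of the 150 members over the 10-week samples put 46.1% of their variance on the first and 18.9% on the second component. In an analysis of the 20-week samples these shares were 30.2% and 12.4%, and over the 7728 genes they were 21.6% and 14.8% at 20 weeks and 21.7% and 12.97% at 10 weeks. The median absolute correlation between pairs of members was 0.245 at 20 weeks and 0.444 at 10 weeks. This was not particular to the members, since the 150 genes with the highest ratios had the larger shares at the age of their larger spread, with 35.2% and 17.6% at 20 weeks and 22.7% and 11.04% at 10 weeks, and a median absolute correlation of 0.327 at 20 weeks and 0.194 at 10 weeks. At 10 weeks the first score of the members had a correlation of 0.836 in size with the first component of all 7728 genes. The second score had 0.847 with their second component. Both scores thus largely followed the main patterns of all these genes and are not particular to the members. With the weights of the 10-week analysis applied to both ages, the SD of the first score was 4.64 at 20 weeks and 8.32 at 10 weeks, and that of the second 3.03 at 20 weeks and 5.32 at 10 weeks. The weights were fitted to the 10-week values of genes chosen for their larger SD at that age. The lower SD of the scores at 20 weeks is thus built in and is given as a description. Between the ages the first score had a correlation over 114 fish of -0.06 (Spearman -0.07), and the second a weakly positive one of 0.28 (Spearman 0.31).

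Each member was assigned to the component with which its level at 10 weeks correlated more strongly, in either direction and with no lower limit. To the first component, in the positive direction, went 94 members, 30 of them named. They comprised among others DIDO1, dido1, atf7ip, cnot3a, matr3l1.2, DNAJB1, CTBP1, RBL2, MED14, MED1 and NPAT. Against it went 10 members, with ilf3b, irf2bp2a and ZNF384 as the named ones. The second component held 34 members in the positive direction, among them RRM2, fbxl18, MEN1, MRPL32, SDF2L1, COX5B, uqcrfs1, TLE1 and PMS1, and 12 in the negative direction. Of these the negative ones were only loosely tied to it, with a median correlation of -0.50, and over all members 38 reached 0.5 and 6 reached -0.5 with the second score. RNASEH2A, a subunit of an enzyme that removes RNA from DNA and a member chosen here after its values were seen, followed RRM2 over fish with a correlation of 0.515 at 20 weeks and 0.811 at 10 weeks.

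**Figure D5:**
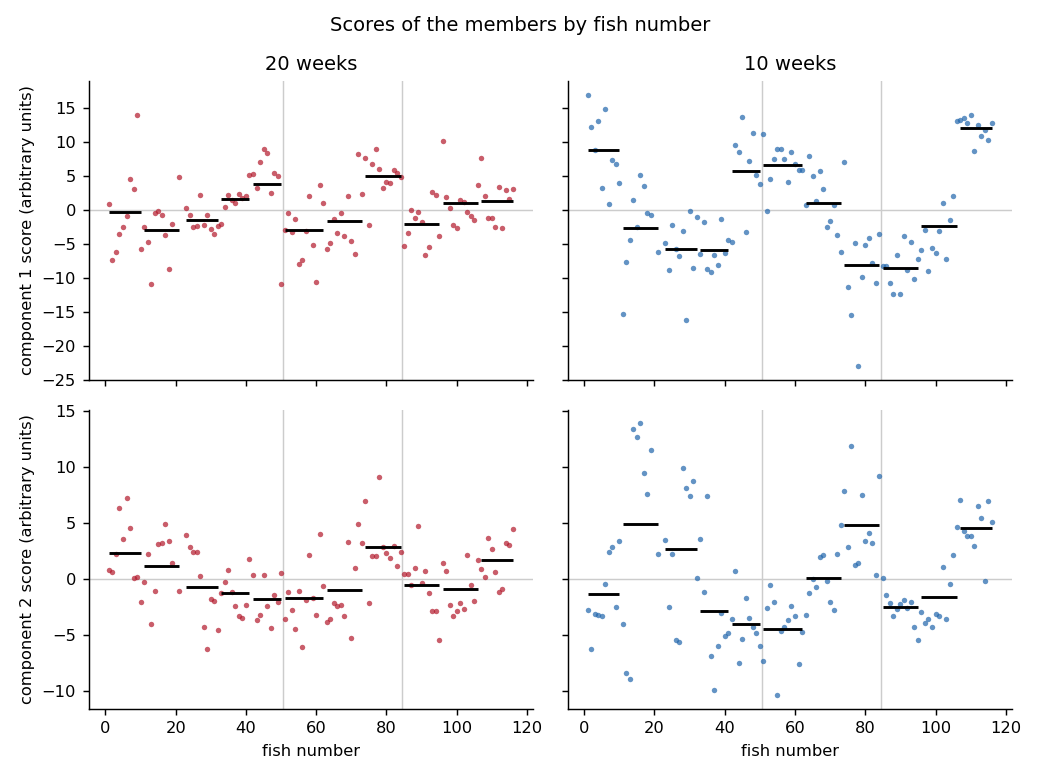
Scores of the first (top) and second (bottom) component of the members, in arbitrary units, by fish number at 20 weeks (left) and 10 weeks (right); points are fish, horizontal bars are means of groups of consecutive fish and grey lines are the limits of the 3 ranges. The bars of the first component run between -2.99 and 4.93 at 20 weeks and between -8.54 and 11.98 at 10 weeks. A narrower span at 20 weeks is partly built in by the choice of the members and of the weights.

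The group means of the first score lay between -2.99 and 4.93 at 20 weeks. At 10 weeks they were 8.74 in fish 1 to 10, -5.91 in fish 33 to 41, 6.59 in fish 51 to 62, -8.11 in fish 74 to 84, -8.54 in fish 85 to 95 and 11.98 in the last 10 fish. Their wider span at 10 weeks is partly built in, as the members and the weights were chosen on the spread at that age. The last 10 fish were also close to each other, with an SD of 1.62 in this group. Consecutive fish of a range had a correlation of the first score of 0.358 at 20 weeks and 0.676 at 10 weeks, and of the second score of 0.46 at 20 weeks and 0.601 at 10 weeks. In all correlations over fish given here the points are therefore not independent of each other.

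Summed levels of 17 gene lists were set beside both scores, and the highest correlations were those of the second score. Its correlation with the summed CPM of the oxidative phosphorylation genes was 0.864 at 20 weeks and 0.9 at 10 weeks, and with the summed proteasome genes 0.858 at 20 weeks and 0.872 at 10 weeks (114 fish, members left out of the sums). For oxidative phosphorylation the Spearman values were 0.901 at 20 weeks and 0.902 at 10 weeks, the Pearson values without the 2 farthest fish 0.85 at 20 weeks and 0.891 at 10 weeks, and those within ranges between 0.83 and 0.91 at 20 weeks and between 0.76 and 0.97 at 10 weeks. With the skeletal muscle genes it was 0.779 at 20 weeks and 0.441 at 10 weeks (Spearman 0.844 at 20 weeks and 0.637 at 10 weeks), with the cell cycle genes 0.747 at 20 weeks and 0.813 at 10 weeks, and with the clock genes -0.561 at 20 weeks and -0.734 at 10 weeks. Most of the skeletal muscle sum (median 357 CPM at 20 weeks and 342 at 10 weeks) was tpm3, with medians of 281 and 258 CPM. The fast muscle gene MYLPF had medians of 0.047 CPM at 20 weeks and 0.092 at 10 weeks. The sum therefore says little on the amount of muscle in the clips. Over all 114 fish the correlations of the first score with the lists were all under 0.5 in size. The highest were 0.474 with skeletal muscle and 0.472 with the proteasome at 20 weeks and -0.492 with the ribosomal proteins at 10 weeks. Within single ranges some were higher. With the proteasome the first score had 0.070 in fish 1 to 50, 0.838 in fish 51 to 84 and 0.389 in fish 85 upward at 20 weeks. At 10 weeks these values were 0.221, 0.065 and 0.930, and with the cell cycle genes 0.201, -0.108 and 0.853. The summed markers of keratinocytes, the main cell type of the epidermis, had a median of 141961 CPM at 20 weeks and 149647 CPM at 10 weeks. With this sum the first score had a correlation of -0.47 at 20 weeks and -0.41 at 10 weeks. The second score had -0.50 at 20 weeks and -0.38 at 10 weeks. In bulk tissue fewer cells of a type and less RNA per cell cannot be told apart. As CPM share 1 total, a larger keratinocyte sum also leaves less for the other genes. The part of this in the correlations was not tested. Both scores also moved with the composition of the libraries. The share of counts in the 10 most abundant genes had a correlation with the first score of -0.544 at 20 weeks and -0.462 at 10 weeks and with the second of -0.494 at 20 weeks and -0.362 at 10 weeks. The TMM scaling factor had 0.586 at 20 weeks and 0.555 at 10 weeks with the first score and 0.502 at 20 weeks and 0.434 at 10 weeks with the second. With the total count the first score had -0.05 at 20 weeks and 0.1 at 10 weeks and the second -0.14 at 20 weeks and 0.05 at 10 weeks. The part of these in the spread was not tested. The SD of the summed keratinocyte markers was 0.274 at 20 weeks and 0.188 at 10 weeks, and that of the summed cell cycle genes 0.513 at 20 weeks and 0.572 at 10 weeks.

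The members with the lowest ratios of all, Nfu_g_1_002091 (0.46) and Nfu_g_1_015319 (0.567), carry no name and were high in few clips. Nfu_g_1_002091 ranged from 13.3 to 46.1 CPM with a median of 25.2 at 20 weeks, against 7.67 to 804 CPM with a median of 24.6 at 10 weeks. Its highest fish at 10 weeks were fish 40 with 804 CPM, fish 31 with 180 CPM and fish 55 with 141 CPM. Nfu_g_1_015319 ranged from 2.12 to 9.26 CPM with a median of 4.78 at 20 weeks, against 1.64 to 37.99 CPM with a median of 4.33 at 10 weeks, and was highest in the same 3 fish. The fast skeletal muscle light chain gene MYLPF (Nfu_g_1_007569, named by its human orthologue and chosen here after its values were seen) was at 440 CPM in the 10-week clip of fish 40, and over 10 CPM in the 10-week clips of 8 fish (fish 17, 31, 40, 41, 44, 55, 57 and 82). It reached at most 2.88 CPM in the clips of 20 weeks and 2.77 CPM in the other clips of 10 weeks.

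Of the 12 genes named from the skeletal muscle list, TNNI2, a fast troponin, and ACTN2, a muscle actinin, were like MYLPF above every 20-week clip in the 10-week clips of all 8 fish, and 6 of the 12 had their highest 10-week value in fish 40. The other genes of the list were so in at most 1 of the 8 fish. Among them, the light chain gene MYL1 reached 10.75 CPM in a 20-week clip. MYBPC1 reached 8.82 CPM at 20 weeks and was highest at 10 weeks in fish 88, which is not among the 8. The myoglobin gene mb stayed at or under 0.396 CPM throughout, and the summed level of the list ranged from 199 to 451 CPM at 20 weeks and from 234 to 977 CPM at 10 weeks. Without these 8 fish Nfu_g_1_002091 had a ratio of 1.09 and Nfu_g_1_015319 a ratio of 1.12, and both left the low-ratio set. The other 148 members then had ratios between 0.597 and 0.803, and 125 of the 150 stayed among the lowest 150. The correlation of a member with MYLPF over the 10-week clips was 0.872 for Nfu_g_1_002091, 0.789 for Nfu_g_1_015319 and at most 0.126 for the others.

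A few fish also carried much of the members' variance. At 20 weeks fish 50 held 4.79% of it on average and was the lowest fish for 32 members, and at 10 weeks fish 76 held 4.97% and fish 78 held 4.07%, and they were the lowest fish for 24 and 25 members. Over the 7728 genes these shares were higher, with 8.38% for fish 50, 5.60% for fish 76 and 4.98% for fish 78. Other fish held more in the members. Fish 9 at 20 weeks held 2.74%, against 1.08% over the 7728 genes, and was the highest fish for 29 members. At 10 weeks fish 1 held 2.07% against 1.58%, and fish 11 held 1.90% against 1.51%. How often these fish were highest or lowest was not counted over the 7728 genes. Without fish 76 and 78 the median ratio of the members was 0.746, and 42 of the 150 left the lowest 150. The libraries of fish 50 at 20 weeks and fish 78 at 10 weeks were among 4 of 228 libraries with a TMM factor under 0.8. Total counts ranged from 15854077 to 37764097 per library.

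The level of the members differed between the 3 ranges about as often as that of other genes, a difference that the rule removes before the SD is taken. At 20 weeks 122 of 150 members differed between ranges in edgeR's quasi-likelihood test (adjusted p under 0.05), against 79.9% of the 17116 genes tested. At 10 weeks all but 48 of the 150 members did, against 69.2% of the genes. These tests treat each fish as independent, whereas consecutive fish of a range were alike in the scores of the members. Their p-values may therefore be too low. The 3 named members with the lowest p at 20 weeks were TLE1, a co-repressor of the Groucho family, MED1 and eif4e2. TLE1 averaged 38.7 ± 5.2 CPM in fish 1 to 50, 34.6 ± 5.0 CPM in fish 51 to 84 and 43.8 ± 4.5 CPM in fish 85 upward at 20 weeks (SD, n = 48, 34 and 32), with an adjusted p of 4.9e-12 in this test in edgeR. At 10 weeks they were SDF2L1, DNAJB1 and RBM33. SDF2L1 averaged 39.7 ± 15.8, 38.7 ± 9.9 and 25.5 ± 2.4 CPM in these ranges at 10 weeks, with an adjusted p of 2.6e-08 in edgeR.

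The mean level changed little between the ages, as the rule demands. In the edgeR test within fish 29 members were higher and 34 lower at 20 weeks (adjusted p under 0.05), against 62.2% of all genes tested that were called in either direction, and nothing is read from this count. As a description, RBM33 averaged 0.29 ± 0.04 log2 units higher at 20 weeks and ilf3b 0.24 ± 0.05 (SE). MEN1 averaged 0.16 ± 0.04 and RRM2 0.15 ± 0.04 lower at 20 weeks. The rule limits this same change, and the test takes no account of the likeness of consecutive fish. The changes of these 4 genes were not uniform over the fish. The mean change of ilf3b was -0.032 in fish 1 to 50, 0.383 in fish 51 to 84 and 0.498 in fish 85 upward. RBM33 averaged 105.02 CPM at 20 weeks and 124.8 at 10 weeks in fish 51 to 62, but 125.9 and 80.63 CPM in fish 74 to 84. RRM2 averaged 30.4 CPM at 20 weeks and 24.4 at 10 weeks in fish 51 to 62, but 30.5 and 44.6 CPM in fish 74 to 84. MEN1 averaged 17.4 CPM at 20 weeks and 15.7 at 10 weeks in fish 33 to 41, but 15.55 and 20.96 CPM in fish 11 to 21. For most members the level of single fish was at most weakly related between the ages. The correlation of a member's level at 20 weeks with that at 10 weeks had a median of 0.098, against 0.168 over the 7728 genes. Without 11 fish whose samples of both ages did not match each other the medians were 0.098 and 0.169. Among the named members znf839 (0.368) and PMS1 (0.353) were at the upper end, and it was lowest for PRKCE (-0.181), LONRF2 (-0.102) and dgcr8 (-0.095), which encodes a part of the complex that processes primary microRNAs.

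The fish were followed until death so that expression in the clips could be related to lifespan, and the members were examined in Cox models over all fish but the 1 of unknown age at death. A hazard ratio under 1 stands for a lower risk of death at a higher level. With the 3 ranges as strata, 0 of 150 members were associated with mortality by their level at 20 weeks (Cox model, adjusted p under 0.05), against 0.391% of the 17116 genes, and 18 members (12%) had an unadjusted p under 0.05, as had 14.1% of the genes. The named members with the lowest p were COX5B, fbxl18 and TLE1. COX5B stood at 0.29 per log2 unit (95% interval 0.106 to 0.795, adjusted p 0.235, Cox model), fbxl18 had 0.294 and TLE1 had 0.185. Without the 11 fish whose samples did not match, 1 unnamed member was called (0.667% of the members), against 0.538% of the genes. This member, given here after its value was seen, was Nfu_g_1_004170 (hazard ratio 0.297, adjusted p 0.0472 in the Cox model). With the groups of consecutive fish as strata, over all fish, 0 members and 0.0467% of the genes were called by their level at 20 weeks. By the level at 10 weeks, with the 3 ranges as strata, 0 members and 0% of the genes were associated. There 1 member and 1.72% of the genes had an unadjusted p under 0.05. TLE1, LONRF2 and IQCB1, a protein of cilia, had the lowest p there, with hazard ratios of 2.60, 0.657 and 1.36 and 95% intervals that include 1.

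Without strata the counts were much higher, in the members and in all genes. For the level at 20 weeks 53 members were then associated with mortality, against 44% of the genes, and for the level at 10 weeks 12 members, against 25.3% of the genes. For the change between the ages, modelled without strata as in the methods of the study, 55 members were associated, 32 with a higher and 23 with a lower hazard where the level at 20 weeks was higher relative to that at 10 weeks, against 49.4% of the genes. The named members with the lowest p were TLE1, at 0.169 per log2 unit (95% interval 0.0829 to 0.343), eif4e2 with 0.25 and COX5B with 0.362. With the 3 ranges as strata, 0 members and 0% of the genes were associated by their change, with 7 members (4.67%) and 7.78% of the genes at an unadjusted p under 0.05, and TLE1 had a hazard ratio of 0.344 (95% interval 0.154 to 0.768, adjusted p 0.538, Cox model). Over all fish, association with mortality within the ranges was thus not detected for the members at this number of fish.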

How the data were processed

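The authors deposited a table of raw read counts, 1 column for each library. The library kit, TruSeq RNA v2, is unstranded, and reads of overlapping genes or close paralogs cannot be told apart. Per the submitters' notes, featureCounts 1.5.0, TopHat2 2.1.0 and bcl2fastq 1.8.4 were used. The genome build of these libraries is not given in the sources used here. Identifiers were named from tables of the study (5885 identifiers), and no sequence or coordinate was used. CPM were computed from column totals. The members, the gene lists and the tests were chosen with earlier results of these data known. Members were selected as stated in the report. Named genes are the 25 named members with the lowest ratio, the first 2 without a name, members on a gene list, the 2 genes on either side of the limit, the 3 named members with the lowest p in each range test and Cox model, and the 3 with the highest and the lowest correlation between the ages. A result that this rule would name is not reported here.

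Genes kept by filterByExpr (17116) were tested with edgeR 4.0.16 (R 4.3.3, quasi-likelihood, TMM, two-sided) between the ages, with the fish as a block, and between ranges. Cox models (survival 3.8.3, Efron ties, Wald test) used log2 counts scaled by DESeq2 1.42.0 size factors with a pseudocount of 1. Hazard ratios are per log2 unit. P-values were adjusted over all genes tested after Benjamini and Hochberg. limma 3.58.1 and DESeq2 served as alternatives. The principal components were computed on range-centred and scaled values. Samples were paired because the labels name the same fish at both ages. For each gene the level after subtraction of range means was correlated between the ages over the 114 fish. This correlation had a median of 0.168 over the genes within the limits. In 11 fish the samples of both ages matched other fish better than each other, so that the labels may pair wrong samples. These were fish 18, fish 43 and fish within 95 to 104. The SD at an age is unaffected by this if the samples are of the stated age and range, which was not tested. The age test, the correlations of genes between the ages and the Cox models rest on the pairing and were also run without these fish. The variance shares of groups and the correlations of consecutive fish rest on the fish numbers at each age and were not run without them. The rule and the tests were tested on simulated data. For the tests these data held no likeness of consecutive fish, so they say nothing on how it affects the p-values. Each age has 1 library per fish, so p-values measure the spread between these samples. The age and range tests take no account of the likeness of consecutive fish. No sample was left out, except the fish of unknown age at death from the Cox models.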

Additional observations from a re-analysis of the deposited data

How the results depend on the processing

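The median ratio of the 150 members stayed under 1 in all alternatives, which rest on the same data as the choice of the members. It was 0.872 with the means of groups of consecutive fish subtracted, 0.688 with the median absolute deviation, 0.799 in fish 51 to 84 and 0.618 in fish 85 upward, and moved by less than the spread between members in the others. Which genes belong to the set depended strongly on the settings. Of the 150 members, 84 stayed in it with TMM factors, 82 with DESeq2 size factors, 96 with a mean CPM of at least 20, 55 with the median absolute deviation, 60 with the interquartile range, 83 with no subtraction of range means, 44 with group means subtracted and 61 without the 4 fish with a TMM factor under 0.8. From single ranges alone 17 (fish 1 to 50), 30 (fish 51 to 84) and 32 (fish 85 upward) of the members were found, and 0 with no filter on low values, where other genes take all places. Without the 11 unmatched fish 129 stayed. Among the 53 named members, ratios of 1 or more were found for tra2b with TMM factors (1.01), for tra2b (1.02), nudcd1 (1.01) and fxr2 (1.004) with DESeq2 size factors, and for DNAJB1 (1.07), PRKCE (1.04) and rbm4.2 (1.04) with group means subtracted. Members without a name also reached 1. Of all 150 members, 139 stayed under 1 with group means subtracted and 148 with the median absolute deviation. Nfu_g_1_002091 (1.09) and Nfu_g_1_015319 (1.12) did not without the fish with muscle transcripts. The causes were not tested.

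Without strata the Cox models called 53 members by their level at 20 weeks and 12 at 10 weeks, and with strata 0 by their change. LONRF2 at 10 weeks then had a hazard ratio of 1.09 without strata, against 0.657 with them. Without the replicate block the age test called 66 members in place of 63, against 60.2% and 62.2% of the genes. No alternative moved the counts of the age and range tests by over 1.5 times. Without the 11 unmatched fish the age test called 57 members, against 61.4% of the genes. The Cox models then called 1 member by the level at 20 weeks, against 0.538% of the genes, and 0 at 10 weeks, against 0%. By the change they called 48 members, against 46.8% of the genes, and 0 with strata, against 0%. The median correlation of a member between the ages was 0.098. The 1 member was Nfu_g_1_004170, with a hazard ratio of 0.297 and an adjusted p of 0.0472 (Cox model), against 0.363 and 0.0898 over all fish. The tests without the unmatched fish and the settings that leave out the fish with muscle transcripts, fish 76 and 78, or the most deviant fish were chosen after seeing the data. Depth limits little for most members, which have a mean CPM of at least 5, as counting error was small against the spread between fish. For single members it reached up to 47.1% of the variance at 20 weeks.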
